A study of Saccharomyces cerevisiae with 159 samples.

Results

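The genes described here are the 39 nuclear genes of the yeast respiratory chain and of the F1Fo ATP synthase. They were picked by gene name from the 7130 rows of the expression table and not by their measured values, though earlier results of these data were known. They comprise 3 NADH dehydrogenase genes, 4 of complex II, 9 of complex III, 2 cytochrome c isoforms, 9 of complex IV and 12 of the ATP synthase. All 39 were present in each of the 159 libraries, which make up 97 groups in 8 experiments.

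All libraries came from budding yeast of the W303 background in rich glucose medium. In the cdc28-13 experiment WT and cdc28-13 cells were held at 37 °C, and 26 libraries of total RNA were made at 2, 4, 6, 8 and 9 h. WT had 3 libraries at each time, and cdc28-13 had 3 at 2, 8 and 9 h and 1 at 4 and 6 h. The cdc20-1 and cdc15-2 experiments had 9 and 10 poly(A)-selected libraries at 37 °C, with 1 library per strain and time and no WT library at 8 h for cdc20-1. In the alpha factor experiment 12 libraries compared bar1 cells given 5 µg/mL alpha factor, with 2 µg/mL added again through the arrest, with DMSO at 30 °C, again with 1 library per time. The growth experiment followed a WT haploid and a WT strain labelled diploid at 30 °C at 2, 4, 6, 8, 10 and 24 h in 23 libraries, with 2 per group except for the haploid at 4 h, which had 1. The rapamycin experiment held the same strains at 0, 1, 2, 3, 4 and 5 h of 5 nM rapamycin in 24 libraries, 2 per group. A legend in the study's supplement gives a lower concentration for the labelled diploid than the sample labels do. The Bcy1 experiment had 47 libraries of WT, cdc28-13, cdc20-1 and cdc15-2 cells and of the same backgrounds with AID-BCY1, a degron-tagged BCY1 driven by the RFA1 promoter beside an auxin receptor. All of its cultures were at 37 °C and were given 500 µM auxin after the 2 h sample, parents included, and each group had 2 libraries except WT at 2 h, which had 1. The last experiment had 8 poly(A)-selected libraries, 1 per group, of an auxotrophic and a prototrophic cdc28-13 strain at 2, 4, 6 and 8 h at 37 °C. A legend in the study's supplement says that these cultures were first synchronised with alpha factor, which the sample labels do not mention. The prototroph also carried a stress reporter.

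Before any comparison, several libraries went against their labels. The strain labelled diploid, whose genotype the study lists as MATa/alpha, held transcripts of a cells and haploid-specific transcripts. STE2, the alpha factor receptor, ranged from 5.44 to 8.50 in its growth libraries and from 7.70 to 8.71 in its rapamycin libraries. The haploid-specific GPA1 ranged from 4.90 to 6.74 and from 5.36 to 7.40. These transcripts report the mating type and not the number of chromosome sets. The study measured a larger mean cell volume in this strain than in the haploid. These libraries are called labelled diploid throughout. In the Bcy1 experiment the WT, WT AID-BCY1 and cdc15-2 AID-BCY1 libraries, all labelled MATa, had STE2 between 2.29 and 4.08 and the alpha pheromone gene MF(ALPHA)1 between 9.19 and 11.83, the pattern of the other mating type. AID-BCY1 strains and parents therefore shared a mating type in the WT and cdc28-13 backgrounds and differed in the cdc20-1 and cdc15-2 backgrounds. In the cdc20-1 experiment WT was of the a type (STE2 8.25 to 8.56) and cdc20-1 of the alpha type (3.62 to 4.45), while in the Bcy1 experiment WT and cdc20-1 shared the alpha type and cdc28-13 and cdc15-2 did not. BCY1 mRNA gives no check of the degron, which acts on the protein.

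Levels are given as log2(scaled TPM + 1), where TPM is a measure of a transcript's share of a library that corrects for gene length. Values were put on a common scale within each experiment from the nuclear protein-coding genes, so a level is relative to the mRNA pool of that culture and not to the cell. In the total RNA libraries of the cdc28-13, growth and rapamycin experiments this pool was a small part of all TPM. At 9 h it was between 4.87% and 5.03% in WT and between 1.79% and 2.08% in cdc28-13 cells. It was also lower at 24 h of growth (3.22% to 3.28% in the haploid) than at 2 h (4.79% to 4.80%). Because each library was made from a whole culture, a change in the share of cells in a state and a change in RNA per cell cannot be told apart. No read counts were used, so depth is unknown. The 9 members with coding sequences under 300 bases were measured with less precision in 3 of the replicated experiments: the median replicate SD was 1.77 for these 9 and 0.41 for the other 30 in the cdc28-13 experiment, 2.03 and 0.43 in the growth experiment and 0.87 and 0.33 with rapamycin. Some members were listed at 0 in at least 1 library of these experiments (6, 14 and 6 members). CYC7 and QCR10 were each at 0 in 7 of 23 growth libraries, and COX9 in 5 of 26 libraries of the cdc28-13 experiment. Library values are given below for only some of these members. The map of log2 differences by complex marks with a ring each gene listed at 0 in a compared library. No member was at 0 in the Bcy1 experiment, where the median SDs were 0.37 and 0.22. Nothing in the labels says that replicates were separate cultures, and p-values then measure the spread between these samples, which may be technical. For growth and rapamycin the study's legends on protein and ribosome measurements describe a single run, so the libraries of a group there may be repeats of the same culture.

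The mitochondrial respiratory chain passes electrons from NADH and succinate through ubiquinone, complex III and cytochrome c to complex IV, which reduces oxygen, and the proton gradient made by complexes III and IV drives the ATP synthase. S. cerevisiae has no proton-pumping complex I. Its NADH is oxidised by Ndi1 on the matrix side of the inner membrane and by Nde1 and Nde2 on the outer side. Cytochrome c and subunit 5 of complex IV each exist as a pair of isoforms, CYC1 and CYC7, and COX5A and COX5B, of which CYC1 and COX5A are known as the forms of aerobic cells. Yeast growing on glucose ferments and holds these genes low, and many of them are activated once glucose runs out by the Hap2/3/4/5 complex, which binds CCAAT-containing promoter elements. Hap4, its activating subunit, is itself made mainly when glucose is scarce. Protein kinase A, which is active on glucose and is held off by its regulatory subunit Bcy1, keeps the transcription factors Msn2 and Msn4 out of the nucleus. Msn2 and Msn4 bind the stress response element AGGGG.

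The upstream sequences of the 39 genes show how much of the set carries these elements. In the 500 bases before each start codon, searched on both strands in the sacCer3 (R64) sequence from RefSeq, ACCAATNA, a longer form of the CCAAT element, was found in 17 of the 39 genes (43.6%) and in 8.59% of 6006 nuclear genes. The bare CCAAT was in 35 of the 39 (89.7%), and in 62.4% of all genes, and every ACCAATNA also holds a CCAAT. The stress response element AGGGG was found in 19 of the 39 (48.7%) and in 34.1% of all genes. The Hap1 consensus was in 1 member (2.56%, against 0.35%), and ATTGTT, the core of the Rox1 site, was in 22 (56.4%, against 48.9%). A match is a description of the letters only.

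8 ACCAATNA windows are printed to show the motif and where it lay in NADH dehydrogenase, complex II, complex III, complex IV and ATP synthase genes. Each is given 5′ to 3′ on the strand of its gene with the motif in capitals, and the distance is that of the motif's first base from the start codon.
NDI1, chrXIII:30011-30052, minus strand, 228 bases: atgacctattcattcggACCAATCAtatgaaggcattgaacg
SDH1, chrXI:171423-171464, minus strand, 318 bases: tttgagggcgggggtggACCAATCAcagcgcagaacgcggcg
QCR7, chrIV:1496706-1496747, minus strand, 182 bases: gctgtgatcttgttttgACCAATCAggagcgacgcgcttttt
RIP1, chrV:106995-107036, plus strand, 248 bases: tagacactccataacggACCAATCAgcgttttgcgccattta
COX13, chrVII:144578-144619, plus strand, 213 bases: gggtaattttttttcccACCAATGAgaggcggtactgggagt
COX6, chrVIII:209471-209512, plus strand, motif on the other strand, 217 bases: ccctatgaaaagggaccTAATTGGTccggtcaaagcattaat
ATP4, chrXVI:408910-408951, minus strand, 190 bases: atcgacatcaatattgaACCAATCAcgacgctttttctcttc
ATP7, chrXI:408143-408184, minus strand, 178 bases: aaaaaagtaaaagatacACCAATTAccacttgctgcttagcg
Over the 15 members whose match lay clear of the start codon, 14 carried it on the coding strand, and in 12 of the 15 it began between 170 and 260 bases before the start codon. The SDH1 match was among the 3 outside these bounds, and all 15 began between 134 and 351 bases before the start codon. The same counts over all genes with the motif are not given, so no preference for a strand or position is read from them. No ACCAATNA was found before NDE2, CYC7, SDH2, QCR2, ATP1 or ATP2. NDE2 and CYC7, which had the widest differences in several experiments below, held 2 and 3 AGGGG matches. COR1, ATP2 and COX5B also held 2 each, and SDH1 and SDH2 held 1 each. A link between the element and the differences was not tested. 3 windows of NDE2 and CYC7, picked for their wide differences, are shown with AGGGG or its complement in capitals.
NDE2, chrIV:303056-303094, plus strand, 138 bases: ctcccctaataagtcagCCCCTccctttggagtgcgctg
CYC7, chrV:80148-80186, minus strand, 192 bases: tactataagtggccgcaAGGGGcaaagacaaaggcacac
CYC7, chrV:80232-80270, minus strand, 276 bases: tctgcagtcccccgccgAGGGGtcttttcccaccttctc

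In cells arrested in G1 by cdc28-13, most respiratory genes rose relative to the mRNA pool late in the arrest, most of all the NADH dehydrogenases, complex II and the cytochrome c isoform CYC7, and least the ATP synthase. At 2 h no member had passed the test, and at 8 and 9 h 28 of 39 were higher than in WT. At an adjusted p under 0.05 over 6288 features, 0.573% of features were called higher and 0.620% lower at 2 h. At 8 h 18.2% were called higher and 20.7% lower, and at 9 h 17.8% and 18.1%. The median log2 difference of the 39 genes was 0.34 at 2 h, 1.62 at 8 h and 1.93 at 9 h, and that of all features at 8 and 9 h was -0.15 and -0.06. Of the 28 members called at each late time, 26 were the same genes (92.9% of each list). ATP1 was the only member called lower, at 8 h. At 4 and 6 h cdc28-13 had a single library, which the test assumes to vary like the other groups, and the calls there have no replicate check: 10 members were called higher at 4 h (background 5.34%), whereas at 6 h 2 were higher and 2 lower (background 6.01% higher and 6.97% lower). The counts at 6 h were near the background, and the 2 called lower, RIP1 (-2.13) and CYC1 (-2.25), rest on that single library. In the Bcy1 experiment described below, with 2 cdc28-13 libraries at 6 h, RIP1 was called higher than in WT and CYC1 was not called.

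**Figure D1:**
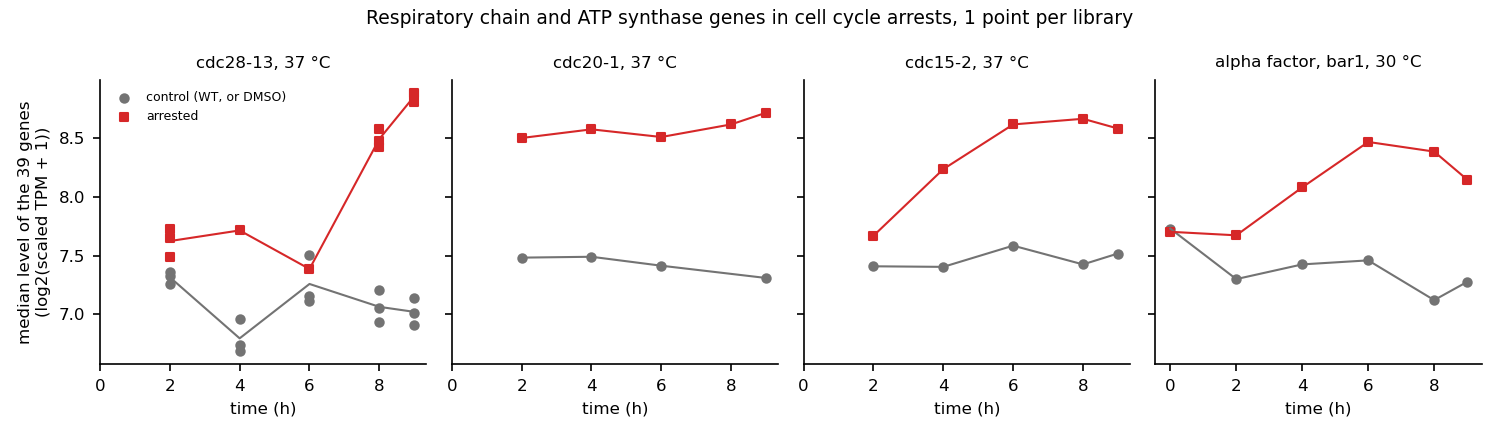
Median level of the 39 genes, as log2(scaled TPM + 1), against time in hours in the 4 arrests, with 1 point per library, grey for WT or DMSO and red for arrested cells, and lines through the mean at each time. The cdc28-13 libraries lie above all WT libraries at 8 and 9 h, and the alpha factor library meets its control at 0 h.

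The 3 NADH dehydrogenase genes rose at both late times. NDI1 (YML120C, chrXIII:28266-29807, minus strand, 1 coding exon) was at 5.69, 5.65 and 6.06 in WT and at 9.46, 9.22 and 9.38 in cdc28-13 at 9 h. All 3 arrested libraries lay far above all 3 WT libraries, and the log2 difference was 3.55 ± 0.30 (SE, n = 3 and 3; limma, adjusted p = 1.1e-08). At 8 h NDI1 differed by 3.83 ± 0.30 (adjusted p = 3.42e-09). NDE1 (YMR145C, chrXIII:554793-556475, minus strand), the main external dehydrogenase, was at 8.00, 7.88 and 8.18 in WT and at 10.15, 9.70 and 10.23 in cdc28-13 at 9 h. The groups did not overlap, and NDE1 was already higher in the single cdc28-13 libraries of 4 h (9.53, WT 7.78 to 7.91) and 6 h (10.18, WT 8.28 to 8.29). NDE2 (YDL085W, chrIV:303211-304848, plus strand), the second external dehydrogenase, was listed at 0 in 1 WT library at each late time, with the other WT values between 2.33 and 3.01. Its cdc28-13 values were 7.28, 7.11 and 6.86 at 8 h and 7.00, 6.14 and 6.61 at 9 h, well above every WT library.

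Complex II, which oxidises succinate and feeds electrons to ubiquinone, moved as a whole, with 4 of 4 members higher at 8 and 9 h (medians 2.84 and 3.07). SDH2, the iron-sulfur subunit (YLL041C, chrXII:53131-53931, minus strand), was at 5.67, 4.85 and 4.76 in WT and at 9.51, 9.81 and 9.56 in cdc28-13 at 9 h. The groups were far apart, with a difference of 4.53 ± 0.43 (adjusted p = 6.55e-08). SDH1, the flavoprotein subunit, was at 5.87, 6.03 and 5.65 in WT and at 8.66, 8.75 and 8.91 in cdc28-13. At 2 h SDH2 was between 5.51 and 6.67 in WT and between 6.29 and 6.47 in cdc28-13, so the groups overlapped before the late arrest.

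In complex III 7 of 9 members were higher at each late time (medians 2.26 and 2.36). QCR2, a core subunit, was at 7.62, 7.27 and 7.54 in WT and at 10.38, 10.50 and 10.34 in cdc28-13 at 9 h. These groups did not overlap (difference 2.93 ± 0.16, adjusted p = 2.8e-11). CYT1, cytochrome c1, rose by 2.26 and 2.62, and RIP1, the Rieske iron-sulfur protein, was at 6.72, 6.45 and 6.26 in WT and at 9.43, 9.22 and 8.99 in cdc28-13 at 9 h. COR1, the other core subunit, was among the 2 members called only at 9 h: its 8 h libraries overlapped, with WT at 7.17, 7.60 and 7.50 and cdc28-13 at 8.12, 6.99 and 8.23.

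In complex IV 6 of 9 members were higher at both times (medians 1.72 and 1.76). COX13, a small regulatory subunit, was at 7.89, 7.40 and 7.03 in WT and at 10.31, 10.23 and 10.15 in cdc28-13 at 8 h, with no overlap, and COX4 was at 6.23, 6.45 and 6.28 in WT and at 8.82, 8.93 and 8.97 in cdc28-13 at 9 h. COX9, one of the short genes, did not pass the test at 9 h (adjusted p = 0.0573). Its WT values at 9 h were 7.50, 6.82 and 7.14 and its cdc28-13 values 0, 7.63 and 0, so it was listed at 0 in 2 arrested libraries and above every WT library in the third.

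The ATP synthase had the lowest medians of all complexes (0.77 and 0.97), with 6 of 12 members higher at each time. Its catalytic pair parted in this experiment. ATP2, the beta subunit (YJR121W, chrX:647607-649142, plus strand), was at 8.85, 8.80 and 8.90 in WT and at 10.52, 10.44 and 10.54 in cdc28-13 at 9 h. The groups were wide apart, and ATP2 rose by 1.65 ± 0.10 (adjusted p = 7.07e-11). ATP1, the alpha subunit (YBL099W, chrII:37053-38690, plus strand), was at 8.23, 8.40 and 8.10 in WT and at 8.26, 8.44 and 8.15 in cdc28-13. These values overlapped fully (0.04, adjusted p = 0.85), and at 8 h ATP1 differed by -0.41 ± 0.13 (adjusted p = 0.0158). ATP3, ATP4 and ATP7, called higher at 8 h, turned to negative differences on both other scales described below, and ATP16 on the deposited values. The difference of ATP2 and ATP1 within a library does not depend on the common scale: it was 0.62, 0.40 and 0.80 in WT and 2.26, 2.00 and 2.39 in cdc28-13 at 9 h. At 2 h the same measure was 0.65, 0.90 and 0.79 in WT and 0.44, 0.80 and 0.81 in cdc28-13, with the groups overlapping. In the Bcy1 experiment at 6 h it was 0.60 and 0.94 in WT and 1.00 and 0.95 in cdc28-13, where all cdc28-13 values lay above WT by little. In the single libraries of the auxotrophic cdc28-13 strain it was 0.57 at 2 h and 1.13 at 8 h. In those of the prototrophic strain it was 0.47 and 0.24.

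Whether these differences grew from 2 h on was tested directly. The cdc28-13 effect at 9 h exceeded that at 2 h for 20 members (background 10.8% called higher), and at 8 h for 16, with 1 smaller (background 11.2% higher and 12.0% lower). In WT alone no member passed the test between 2 and 9 h at 37 °C (background 0.0477% higher and 0.111% lower), and 8 members were under an unadjusted p of 0.05. All backgrounds are shares at the adjusted threshold. The share of all features under the unadjusted threshold is not given, here or below, so counts at an unadjusted p are not read as results.

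The counts for cdc28-13 depended on the common scale. With the ORFs inside the ribosomal DNA counted in the total, the median of all features at 8 h shifted to -0.97, and 14 members were higher and 4 lower. On the deposited values it shifted to -0.84, and 14 were higher and 5 lower. On the deposited values NDI1 differed by 1.96, SDH2 by 2.45, QCR2 by 1.45 and CYC7 by 4.52 at 8 h, so these members were above WT on each scale.

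**Figure D2:**
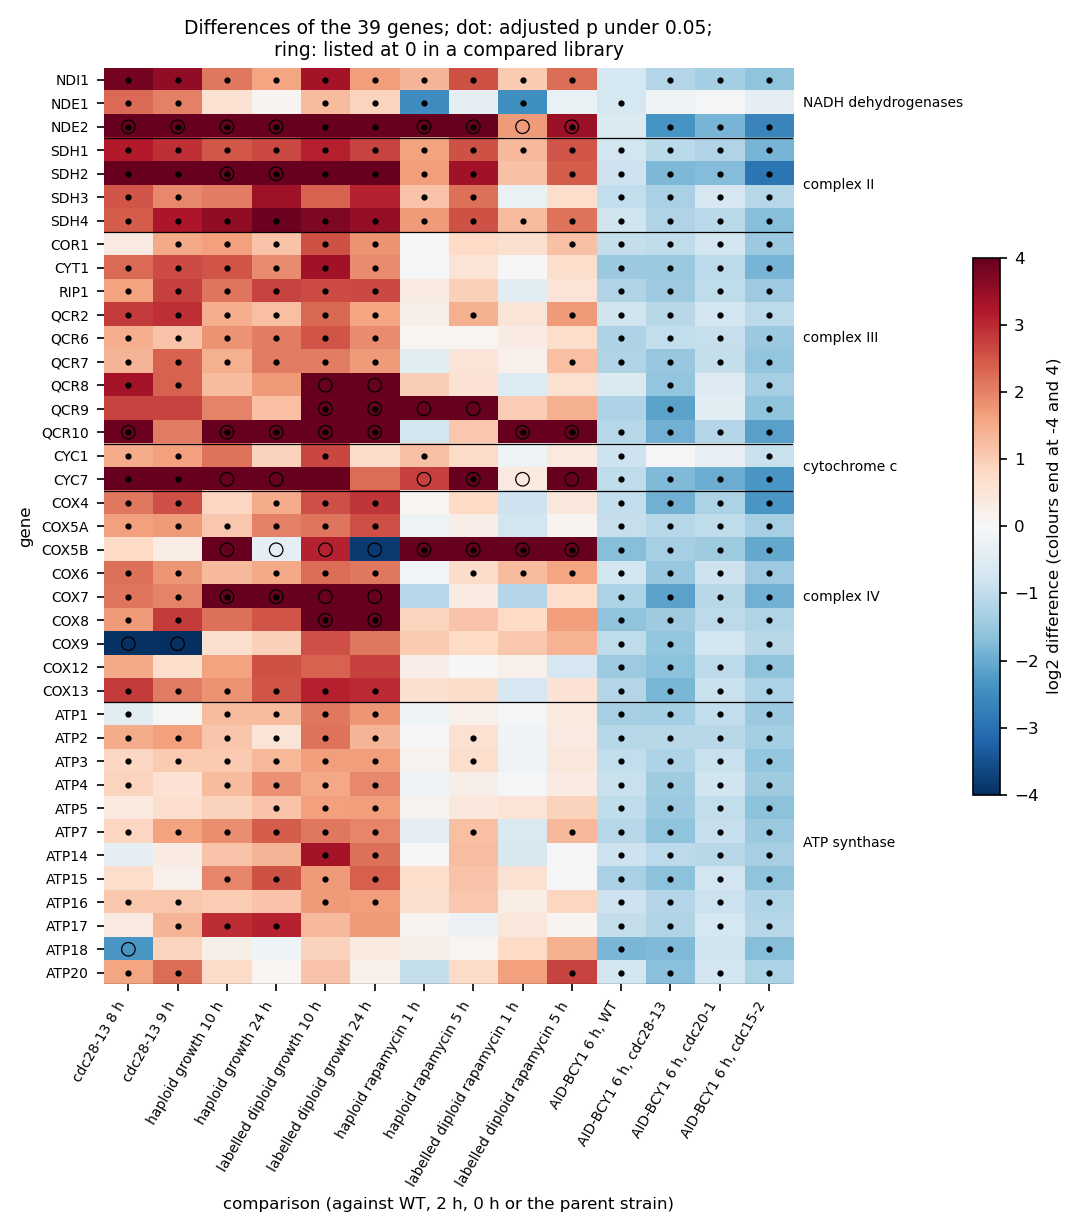
Log2 difference of each of the 39 genes (rows, by complex) in 14 replicated comparisons (columns), red for higher and blue for lower, with colours ending at -4 and 4. A dot marks an adjusted p under 0.05 and a ring a gene listed at 0 in a compared library, and the 4 AID-BCY1 columns are blue almost throughout while the arrest and growth columns are mostly red.

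Cytochrome c and subunit 5 of complex IV allow the isoforms to be compared. CYC7 (YEL039C, chrV:79636-79977, minus strand) was at 5.99, 5.73 and 6.05 in WT and at 11.65, 11.63 and 10.91 in cdc28-13 at 9 h. No other member differed as much at either late time, with log2 differences of 6.70 ± 0.48 at 8 h (adjusted p = 9.56e-10) and 5.47 ± 0.48 at 9 h (adjusted p = 1.84e-08). CYC1 (YJR048W, chrX:526335-526664, plus strand) was at 8.04, 8.43 and 7.51 in WT and at 9.61, 9.90 and 9.36 in cdc28-13, a rise of 1.63 ± 0.36 (adjusted p = 0.00125). On the length-corrected scale CYC1 thus lay above CYC7 in every WT library at 9 h and below it in every cdc28-13 library. COX5A (YNL052W, chrXIV:531725-532186, plus strand) was at 6.25, 7.73 and 7.78 in WT and at 9.33, 8.51 and 9.07 in cdc28-13, higher by 1.72. COX5B (YIL111W, chrIX:155222-155765, plus strand, 2 coding exons) was at 6.94, 6.84 and 7.16 in WT and at 7.36, 7.07 and 7.43, so the groups overlapped (0.31, adjusted p = 0.52).

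**Figure D3:**
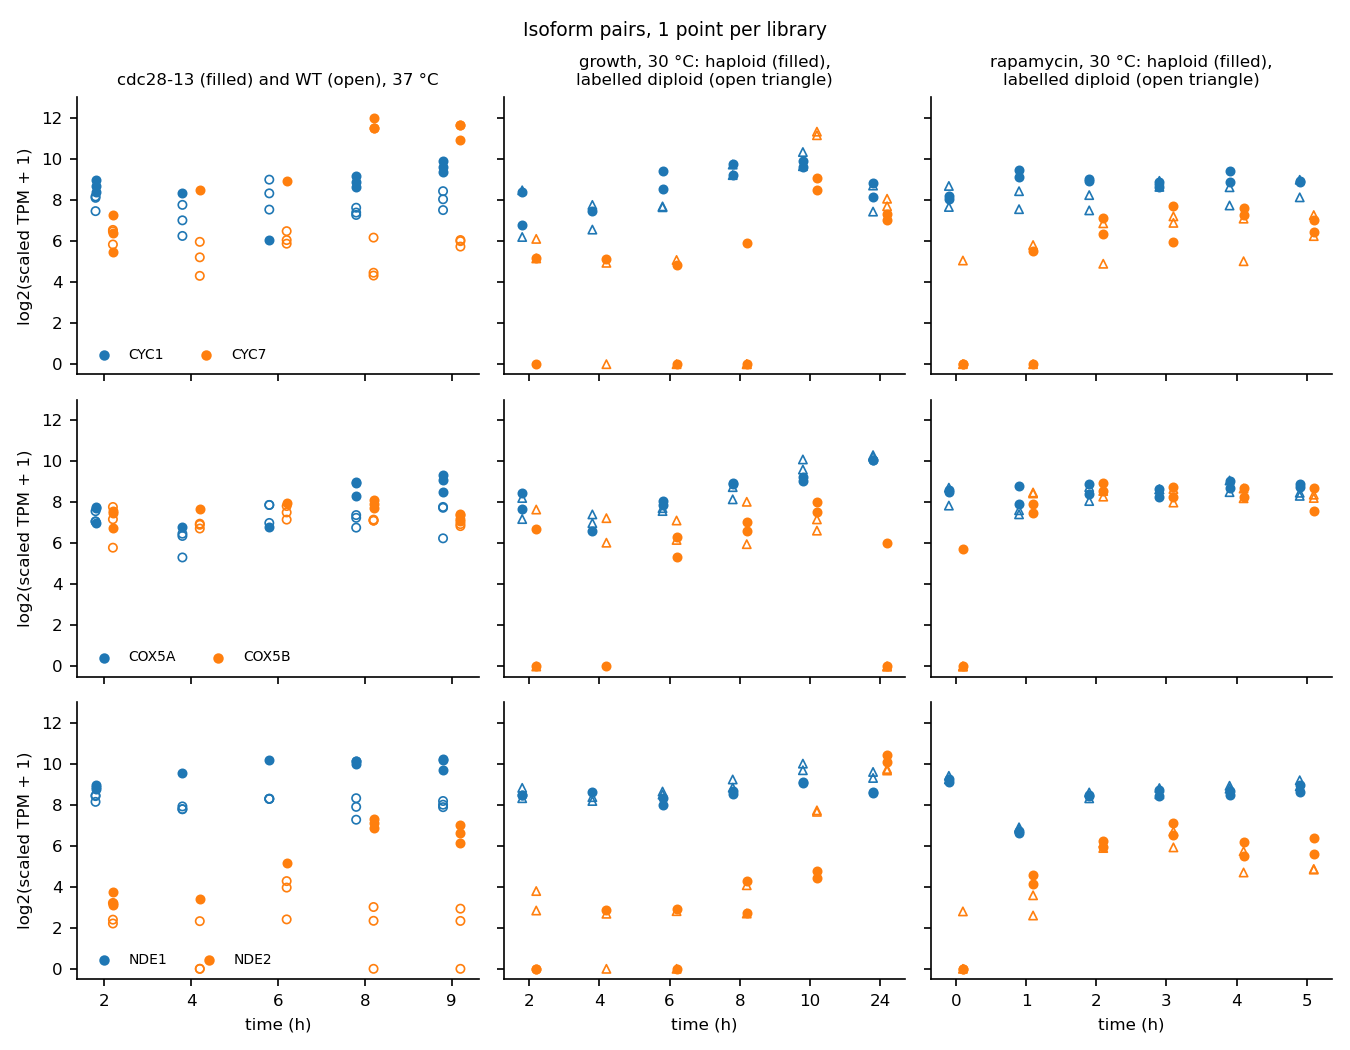
Levels of CYC1 and CYC7, COX5A and COX5B, and NDE1 and NDE2 (rows) as log2(scaled TPM + 1) against time in hours in the cdc28-13, growth and rapamycin experiments (columns), with 1 point per library, time points spaced evenly, and a point at 0 for a library that lists the gene at 0. CYC7 passes CYC1 in cdc28-13 at 8 and 9 h, COX5B falls to 0 in 3 of 4 libraries at 24 h of growth, and NDE1 dips at 1 h of rapamycin.

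The other arrests had 1 library per group, so they carry no test, and a difference was counted when it passed 1 on the log2 scale. In cdc20-1, which arrests in metaphase, all 39 genes were higher than in WT at 9 h, 28 of them past 1 (background 22.3%), with a median of 1.37. Complex III had 9 of 9 past 1 and the ATP synthase 4 of 12. SDH2 was at 5.61 in WT and 8.66 in cdc20-1 at 9 h, and had been at 6.03 and 8.09 already at 2 h. NDE2 had the widest difference (3.75) and COX5B the narrowest (0.16).

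In cdc15-2, which arrests in late anaphase, the medians at 2, 4, 6, 8 and 9 h were 0.33, 0.84, 1.15, 1.41 and 1.23, and 1, 12, 24, 27 and 22 members were past 1 (backgrounds 1.95%, 7.02%, 14.7%, 18.8% and 20.3%). SDH2 was at 6.07, 5.56, 5.76, 5.61 and 5.70 in WT and at 6.78, 7.72, 8.56, 8.86 and 8.67 in cdc15-2 over these times. The arrested value lay above its control at each time, and the gap was narrowest at 2 h. At 9 h NDE2 (3.76), CYC7 (3.01) and SDH2 (2.97) led, and COX9 (0.19) and ATP3 (0.28) were last.

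With alpha factor, the pheromone that arrests MATa cells in G1, the median was -0.06 at 0 h and 0.45, 0.73, 1.12, 1.38 and 0.91 at 2, 4, 6, 8 and 9 h. The number past 1 was 0, 4, 9, 23, 27 and 16 (backgrounds 0.801%, 11.8%, 14.6%, 18.8%, 21.3% and 16.7%). NDE2 was at 1.65, 1.03, 0.68, 0.34, 0.61 and 0.82 with DMSO and at 1.21, 4.13, 2.76, 2.97, 3.31 and 4.17 with alpha factor over the 6 times, above its control from 2 h on. At 9 h CYC1 differed from its control by -0.43 and CYC7 by 0.83. The extract label of these libraries says total RNA and the study's methods say mRNA enrichment.

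The prototrophic and auxotrophic cdc28-13 strains were compared at 37 °C, again with 1 library each. The median difference of the prototroph from the auxotroph at 2, 4, 6 and 8 h was -0.30, -0.36, -0.63 and -0.73, and 1, 4, 7 and 13 members were lower by more than 1 (backgrounds 1.74%, 3.29%, 7.38% and 8.97%). At 8 h SDH1 was at 8.50 in the auxotroph and 6.28 in the prototroph. NDE2 was at 2.70, 4.21, 5.92 and 6.48 in the auxotroph and at 1.72, 2.43, 3.75 and 4.25 in the prototroph over the 4 times. It was higher at each later time in both strains, and lower in the prototroph throughout. ATP1 (0.15), ATP3 (0.14) and ATP16 (0.09) were the only members not lower in the prototroph at 8 h.

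As WT cells grew from log phase towards saturation, most of the 39 genes were higher at 10 and at 24 h than at 2 h, and hardly any passed the test earlier. At 4 and 6 h no member passed the test in either strain (backgrounds in the haploid 0.0328% higher and 0.377% lower at 4 h and 0.0819% and 0.344% at 6 h; in the labelled diploid 0.0328% and 0.0491%, and 0.0491% and 0.115%), with 3 to 8 members at an unadjusted p under 0.05. At 8 h SDH1 rose by 1.24 in the haploid (background 0.262%), and none passed in the labelled diploid (background 0.295% and 0.229%). There 13 members were at an unadjusted p under 0.05, a threshold unlike that of the backgrounds, and the share of all features at it is not given. At 10 h 22 of 39 were higher than at 2 h (background 5.03%) and at 24 h 25 were (background 10.5%), with medians of 1.79 and 1.83. In the labelled diploid 29 were higher at 10 h (background 12.2%) and 28 at 24 h (background 9.75%), with medians of 2.56 and 2.10, and no member was called lower in either strain. Counting only members above 0 in all compared libraries, the 4 counts were 18, 21, 26 and 25. The haploid count at 10 h was 14 without the 2 h replicate 2 and 13 without either 10 h library. At 10 h all 39 differences were positive in both strains, and the strains shared 20 called members, 90.9% of the haploid list and 69.0% of the labelled diploid list.

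By class, the haploid calls at 10 h were 2 of 3 NADH dehydrogenases, 3 of 4 genes of complex II, 7 of 9 of complex III, 3 of 9 of complex IV, 7 of 12 of the ATP synthase and neither cytochrome c. SDH1 was at 6.27 and 6.09 at 2 h, 8.47 and 8.86 at 10 h and 9.01 and 8.65 at 24 h in the haploid. The late libraries lay above both early ones, with differences of 2.49 ± 0.24 at 10 h (n = 2 and 2; limma, adjusted p = 1.62e-05) and 2.65 at 24 h. CYT1 went from 7.35 and 6.17 to 9.02 and 9.56 at 10 h in the haploid and from 6.68 and 7.00 to 10.09 and 10.32 in the labelled diploid. In the labelled diploid 8 of 9 members of complex III were called at 10 h. NDI1 was at 6.59 and 6.73 at 2 h, 8.93 and 8.61 at 10 h and 7.90 and 8.56 at 24 h in the haploid. In the labelled diploid it fell again from 10 to 24 h by 1.66 on the log2 scale (adjusted p = 0.018).

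In the ATP synthase 9 of 12 members were higher at 10 h in the labelled diploid, and ATP1 was called in both strains. It was at 8.44 and 8.84 at 2 h and at 9.74 and 10.07 at 10 h, a rise of 1.27 ± 0.19 (adjusted p = 0.000526) with separate groups. ATP2 rose by 1.12 ± 0.15 (adjusted p = 0.000259) in the haploid and by 2.18 in the labelled diploid. That difference between the strains was the only one among the members to pass the test at 10 h (1.06 ± 0.22, adjusted p = 0.00651; background 1.51% higher and 5.87% lower), and at 24 h none passed (background 0.180% and 0.0819%), with 6 at an unadjusted p under 0.05.

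From 10 to 24 h few members moved. In the haploid ATP2 fell by 0.61 on the log2 scale (adjusted p = 0.016) and NDE2 rose (backgrounds 7.65% lower and 5.23% higher), and in the labelled diploid NDI1, COR1, CYT1 and ATP2 fell and no member rose (backgrounds 4.75% and 9.31%). NDE2 was listed at 0 in both haploid libraries at 2 h, and was at 4.43 and 4.77 at 10 h and at 10.43 and 10.08 at 24 h. Its rise of 5.66 ± 1.14 from 10 to 24 h (adjusted p = 0.0036) took it above NDE1, which was at 8.57 and 8.61 at 24 h. In the labelled diploid NDE2 was at 2.84 and 3.79, then 7.72 and 7.65, then 9.74 and 9.66, again highest at 24 h.

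The isoforms did not follow a single course in growth. CYC7 in the labelled diploid was at 6.10 and 5.15 at 2 h, 11.16 and 11.33 at 10 h and 7.70 and 8.06 at 24 h, highest at 10 h in both libraries. CYC7 in the haploid was at 5.17 and 0, then 9.05 and 8.47, then 7.30 and 7.04, with the same order. COX5A ended higher than it began, at 10.08 and 10.08 in the haploid at 24 h against 8.44 and 7.67 at 2 h. COX5B was at 0 and 6.70 at 2 h in the haploid, at 7.51 and 8.00 at 10 h and at 0 and 6.00 at 24 h, and it was listed at 0 in both labelled diploid libraries at 24 h.

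With rapamycin, which inhibits TORC1, fewer members passed the test. In the haploid 8, 10, 13, 15 and 13 members were higher than at 0 h after 1, 2, 3, 4 and 5 h (backgrounds 13.7%, 15.3%, 14.0%, 13.6% and 12.7%), and in the labelled diploid 6, 11, 15, 14 and 13 (backgrounds 11.7%, 13.7%, 11.9%, 11.2% and 10.5%). The medians at 5 h were 0.80 and 0.86. Counting both directions, the 9 haploid calls at 1 h became 5 without the 1 h replicate 2 and 3 with only the compared groups in the fit, and the 7 labelled diploid calls became 4 without either 1 h library. At 1 h the share of members called was close to the background, so these calls are given by name only: NDI1, NDE2, the 4 members of complex II, CYC1 and COX5B in the haploid, and NDI1, SDH1, SDH4, QCR10, COX5B and COX6 in the labelled diploid. At 5 h the haploid calls were 2 NADH dehydrogenases, 4 of complex II, 1 of 9 of complex III, 1 cytochrome c, 2 of 9 of complex IV and 3 of 12 of the ATP synthase. Of the 13 members called at 5 h in each strain, 9 were shared (69.2% of each list).

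All 4 members of complex II were called in the haploid at 1 h and at 5 h. SDH2 in the haploid was at 4.24 and 5.42 at 0 h, 5.72 and 7.28 at 1 h and 8.20 and 8.16 at 5 h. Each later group lay above the one before, with differences of 1.67 at 1 h and 3.35 ± 0.52 at 5 h (adjusted p = 0.000183). NDI1 was at 5.22 and 6.16, then 6.71 and 7.40, then 8.13 and 8.38, with differences of 1.36 ± 0.32 (adjusted p = 0.00506) and 2.56 ± 0.32 (adjusted p = 2.44e-05). QCR2 of complex III was at 8.01 and 8.08 at 0 h, 8.50 and 8.04 at 1 h and 9.45 and 9.48 at 5 h, overlapping with its start at 1 h and above it at 5 h. ATP2 was at 9.76 and 9.83 at 0 h and 10.50 and 10.30 at 5 h, a rise of 0.61.

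NDE1 fell at 1 h in both strains. In the haploid it was at 9.10 and 9.23 at 0 h, 6.64 and 6.71 at 1 h, 8.48 and 8.41 at 2 h and 8.96 and 8.60 at 5 h. The 1 h libraries lay far below all others, with a difference of -2.49 ± 0.17 (adjusted p = 3.59e-08), and by 5 h the difference no longer passed the test (-0.38, adjusted p = 0.142). The labelled diploid gave 9.23 and 9.40 at 0 h and 6.90 and 6.83 at 1 h, a fall of 2.46 on the log2 scale (adjusted p = 5.41e-08), and 9.19 and 8.90 at 5 h. At 1 h NDE1 was the 1 member called lower in each strain (backgrounds 11.9% and 11.1%). At 2 h COX4 was also called lower in the labelled diploid (-0.95, adjusted p = 0.032; background 12.4%). NDE1 stayed lower in the haploid at 2, 3 and 4 h (backgrounds 13.2%, 9.65% and 9.27%) and in the labelled diploid at 2 and 3 h (background at 3 h 9.46%).

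COX5B, NDE2 and CYC7 had libraries listed at 0 before rapamycin. COX5B was at 0 and 5.72 at 0 h, 7.90 and 7.46 at 1 h and 7.56 and 8.69 at 5 h in the haploid, and at 0 and 0, 8.48 and 8.43, and 8.37 and 8.21 in the labelled diploid. It was thus at 7.46 or more in all of these treated libraries and at most 5.72 before. COX5A was at 8.50 and 8.58 at 0 h and at 8.89 and 8.75 at 5 h. NDE2 in the haploid was at 0 and 0, then 4.11 and 4.55 at 1 h and 5.62 and 6.38 at 5 h. The change at 1 h differed between the strains for 1 member, COX6 (1.4 ± 0.27, adjusted p = 0.0266; background 0.194% higher and 0.436% lower), whose labelled diploid values at 0 h were 7.57 and 7.41 and whose haploid values were 8.55 and 8.32. At 5 h no member differed between the strains (background 0.161% and 0.710%), with 4 at an unadjusted p under 0.05.

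The scale bears on these counts too. The share of TPM from the genes behind the scale fell from between 5.00% and 5.09% at 0 h to between 3.70% and 3.84% at 5 h in the haploid. The further factor within these genes was between 1.47 and 1.50 at 0 h and between 0.936 and 0.941 at 5 h. Leaving it out therefore raises every gene at 5 h relative to 0 h, and 27 members were then called higher. The share of all features called on that scale is not given, so the count of 27 is not read as a result about the members.

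In the Bcy1 experiment the arrests could be compared with WT with 2 libraries each. At 6 h 30, 33 and 29 members were higher in cdc28-13, cdc20-1 and cdc15-2 than in WT (backgrounds 26.6%, 26.1% and 20.4%) and none was lower, with medians of 0.95, 0.83 and 0.81. These 3 comparisons share the WT libraries, and the mating type of WT matched only that of cdc20-1. For cdc20-1 the count was 21 without its replicate 1 and 19 without WT replicate 2. At 2 h no member was called in cdc28-13 (background 1.64%), with 1 at an unadjusted p under 0.05, 6 were higher in cdc20-1 (background 8.61%), and NDE1 and SDH3 were lower in cdc15-2 (background 6.41%). In cdc28-13 all 3 NADH dehydrogenases, all 4 members of complex II and all 9 of complex III were higher at 6 h, and 6 of 12 of the ATP synthase. CYC7 was at 6.38 and 6.71 in WT and at 8.78 and 8.85 in cdc28-13, higher by 2.27 ± 0.30 with no overlap. CYC1 was at 8.96 and 8.68 in WT and at 8.40 and 8.54 in cdc28-13, not called (-0.35).

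After auxin nearly all of the 39 genes were lower in AID-BCY1 cells than in their parents, in cycling and in arrested cultures. The Bcy1 protein, the inhibitor of protein kinase A, was not measured in these libraries. At 2 h, before auxin, no member was lower in AID-BCY1 strains than in their parents in any background (backgrounds 0.0986%, 0.131%, 2.12% and 0.509% for WT, cdc28-13, cdc20-1 and cdc15-2; 0, 3, 3 and 4 members at an unadjusted p under 0.05 in either direction), and QCR6 was higher in cdc20-1 (background 1.51%). At 4 h 34, 32, 35 and 36 members were lower (backgrounds 12.1%, 13.1%, 16.8% and 15.8%). At 6 h 35, 37, 33 and 38 were lower (backgrounds 9.84%, 13.9%, 11.8% and 17.3%), with medians of -0.99, -1.44, -0.95 and -1.49, and no member had a positive difference in any background. Without WT replicate 1 of 6 h the count in WT was 18. The effect at 6 h exceeded that at 2 h by the direct test for 4, 31, 21 and 33 members (backgrounds 1.59%, 4.65%, 5.92% and 8.89%). The WT count rests on a single WT library at 2 h. At that time 24 of the 39 genes were lower in both WT AID-BCY1 libraries than in that library. With 1 library against 2 such separation arises easily, and the share over all features is not given, so this count is not read as a result.

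**Figure D4:**
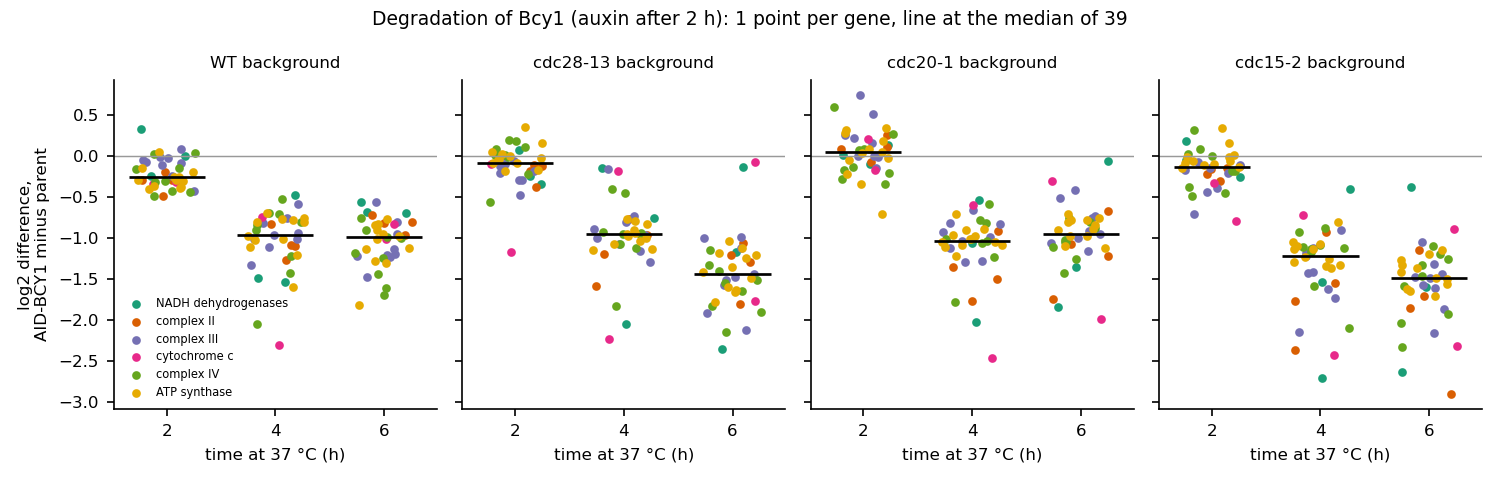
Log2 difference of each of the 39 genes between AID-BCY1 and its parent at 2, 4 and 6 h at 37 °C in 4 backgrounds, with 1 point per gene coloured by complex and a line at the median. At 2 h, before auxin, no gene was called lower, though most were lower in both WT AID-BCY1 libraries than in the single WT library. At 6 h all points lie below 0, with NDE1 and CYC1 near 0 in cdc28-13.

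The ATP synthase and complex IV were lower almost as whole complexes: at 6 h 12, 12, 11 and 12 of the 12 ATP synthase genes and 9, 9, 8 and 9 of the 9 complex IV genes were lower in WT, cdc28-13, cdc20-1 and cdc15-2. ATP14, subunit h of the stator stalk, was at 8.01 and 8.22 in WT and at 7.12 and 7.46 in WT AID-BCY1. It lay below its parent in both libraries of all 4 backgrounds, with differences of -0.83, -1.04, -1.10 and -1.33. COX4 was at 8.33 and 7.95 in cdc28-13 and at 6.36 and 6.10 in cdc28-13 AID-BCY1, also without overlap (-1.91 ± 0.20, adjusted p = 7.11e-08). COX5B, whose groups overlapped in the cdc28-13 time course, fell here in every background, by 1.69 ± 0.19 on the log2 scale in WT (7.34 and 7.46 against 5.51 and 5.90; adjusted p = 9.78e-07).

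Complex II fell in all backgrounds, with 4 of 4 members each. SDH2 at 6 h was at 6.74 and 6.15 in WT and 5.45 and 5.79 in WT AID-BCY1. It was at 8.28 and 8.25 in cdc28-13 and 6.47 and 6.45 with AID-BCY1, and at 8.12 and 8.32 in cdc15-2 and 5.15 and 5.47 with AID-BCY1. In cdc20-1 the parent was at 8.54 and 8.40 and AID-BCY1 at 6.74 and 6.71. The AID-BCY1 values of cdc28-13 and cdc20-1 thus lay within the range of the 2 WT libraries and those of cdc15-2 below it, and no background had overlapping groups.

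The members not called at 6 h differed between the arrests: NDE1 and CYC1 in cdc28-13, NDE1 alone in cdc15-2, and NDE1, CYC1, QCR8, QCR9, COX9 and ATP18 in cdc20-1. NDE1 was at 8.98 and 8.38 in WT and at 8.15 and 7.80 in WT AID-BCY1 (-0.71 ± 0.16, adjusted p = 0.002). In cdc28-13 it was at 10.53 and 10.07, and with AID-BCY1 at 10.28 and 10.04, overlapping (-0.14, adjusted p = 0.546), and it was not called in cdc20-1 (-0.07, adjusted p = 0.79) or cdc15-2 (-0.38, adjusted p = 0.0638). CYC1 in cdc28-13 was at 8.40 and 8.54, and with AID-BCY1 at 8.15 and 8.63 (-0.08, adjusted p = 0.857). In cdc15-2 CYC1 was lower with AID-BCY1, at 8.72 and 9.12 against 9.58 and 10.06 (-0.90, adjusted p = 0.00653). The difference of the NDE1 effect from that in WT did not pass the test in any arrest (adjusted p = 0.134, 0.0812 and 0.416 for cdc28-13, cdc20-1 and cdc15-2).

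A few members had a larger difference in an arrest than in WT. NDE2 was at 2.49 and 1.99 in WT and 1.56 and 1.79 in WT AID-BCY1, and at 5.15 and 4.83 in cdc28-13 and 2.37 and 2.89 with AID-BCY1. The effect in cdc28-13 differed from that in WT by -1.79 on the log2 scale (background 2.35% called lower in this test). In cdc15-2 4 members had a larger fall than in WT, NDE2 (-2.08), SDH1 (-1.14), SDH2 (-2.09) and COX4 (-1.35; background 3.66%). In cdc20-1 none had (background 2.84%), with 5 at an unadjusted p under 0.05. These tests reuse the parent and WT libraries of the arrest comparisons.

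HAP4 mRNA was followed beside the members. In cdc28-13 HAP4 rose: it was at 6.15, 6.04 and 6.13 in WT and at 9.64, 9.70 and 9.75 in cdc28-13 at 9 h, with separate groups (3.59 ± 0.28, adjusted p = 4.33e-09), and it was not called at 2 h (0.87, adjusted p = 0.208). HAP1, HAP2, HAP3 and HAP5 were not called at 9 h. ROX1, a repressor of hypoxic genes, was higher by 0.96 at 9 h (adjusted p = 0.00298) but not called at 8 h (-0.10, adjusted p = 0.781). With rapamycin HAP4 moved the other way first, from 6.99 and 6.53 at 0 h to 4.40 and 4.13 at 1 h in the haploid (-2.49 ± 0.67, adjusted p = 0.012), and it was at 6.58 and 5.87 at 5 h. In growth the haploid had 7.57 and 7.40 at 2 h, 5.21 and 5.47 at 8 h (-2.15, adjusted p = 0.00419) and 8.20 and 7.78 at 10 h (0.50, adjusted p = 0.401), while the labelled diploid rose at 10 h by 2.5 (adjusted p = 2.49e-05). In AID-BCY1 cells HAP4 was lower at 6 h in all 4 backgrounds, with differences of -0.72, -0.65, -0.78 and -1.24 (adjusted p = 0.0237, 0.0294, 0.0105 and 8.31e-05).

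Other mitochondrial gene lists were set beside the 39 genes, as counts and medians. All 11 TCA cycle genes were higher in cdc28-13 at 9 h (median 1.61), 10 of 11 at 10 and 24 h of haploid growth (1.77 and 2.34) and 8 of 11 at 5 h of rapamycin in the haploid. The subunits encoded in mitochondrial DNA, of which 6 of 7 were tested, were all higher in cdc28-13 at 9 h (2.77) and at 24 h of haploid growth (3.27), and 2 of 6 at 10 h (0.97). The mitochondrial ribosome, with 64 nuclear genes tested, had 3 higher and 2 lower in cdc28-13 at 9 h (-0.57), 11 higher at 10 h of haploid growth (1.33) and 2 higher and 1 lower at 24 h (0.10). From 10 to 24 h 12 of these 64 genes fell (-1.44). In the arrests of the Bcy1 experiment at 6 h, 51 of the 64 were lower in cdc28-13 (median -0.78; background 23.3% called lower), 42 were lower and 3 higher in cdc20-1 (-0.62; background 21.4%) and 16 were lower in cdc15-2 (-0.29; background 17.8%), the last a share near its background. In AID-BCY1 cells at 6 h 61, 27, 12 and 61 of 64 were lower in WT, cdc28-13, cdc20-1 and cdc15-2, with medians of -0.96, -0.39, -0.16 and -0.82, and the share in cdc20-1 was near its background.

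The 23 genes for complex IV assembly factors had 1 higher and 2 lower in cdc28-13 at 9 h (-0.11) and 15, 12, 7 and 18 lower with AID-BCY1. At 9 h of cdc28-13, 3 of 7 genes for complex II assembly factors and paralogs, 1 of 8 for assembly of complex III and cytochrome c, 2 of 11 for the ATP synthase's assembly and inhibitors, 2 of 8 for heme synthesis and 1 of 9 for ubiquinone synthesis were higher, and 1 heme synthesis gene was lower. Of 11 TCA cycle genes, 3 fell and 1 rose with AID-BCY1 in WT, and 5 fell in cdc28-13. In cdc20-1 6 fell and 2 rose, and in cdc15-2 7 fell and 1 rose. The share of all features called higher is not given here, so the rises are counts only. Mitochondrially encoded subunits, of which 5 were tested there, had no call in WT or cdc28-13, 1 higher in cdc20-1 and 1 lower in cdc15-2. INH1, which encodes an inhibitor of ATP hydrolysis by the ATP synthase, fell in all 4 backgrounds, by 3.02, 2.51, 1.85 and 3.28 on the log2 scale.

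**Figure D5:**
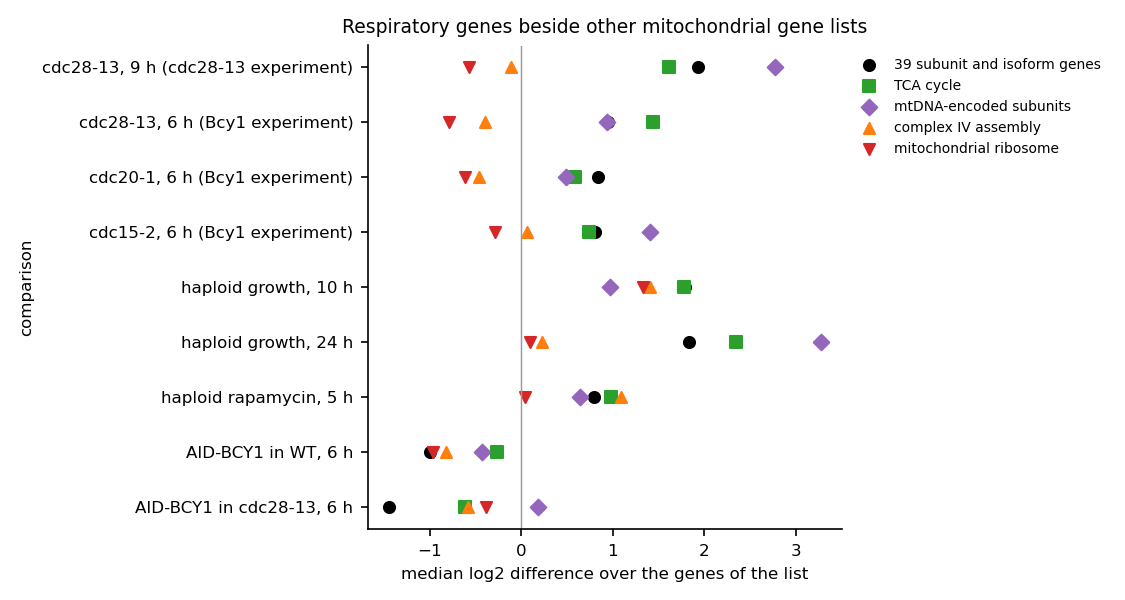
Median log2 difference of the 39 genes (black) and of 4 other mitochondrial gene lists in 9 replicated comparisons. The 39 genes lie right of 0 in the arrests, growth and rapamycin and left of it in both AID-BCY1 comparisons, and the mitochondrial ribosome lies left of 0 in the arrests.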

How the data were processed

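RNA-seq of 159 yeast libraries was used. Per the labels, the authors aligned reads with STAR 2.5.3a and quantified them with RSEM 1.3.0 on sacCer3, and deposited log2(TPM + 1). Totals were 1000000 TPM in 5 experiments but not in those of cdc28-13, cdc20-1 and cdc15-2, through a step not given in the sources used here. From these values TPM was recovered, nuclear ORFs outside the ribosomal DNA (6678 rows) were rescaled to 1000000, a median-of-ratios factor was applied within each experiment, and log2(x + 1) was taken. Features with a mean of at least 1 were tested with limma 3.58.1 in R 4.3.3, with all groups of an experiment in a single fit, trended variance and Benjamini-Hochberg adjustment over all features at 0.05. The Bcy1 fit held a library series term, since libraries of a series deviated together (4 pairs, correlations 0.148 to 0.43). Experiments with single libraries were not tested. Any member could be named, with values per library for the NADH dehydrogenases, both isoform pairs, HAP4 and members at the ends of each complex. The 39 members and all lists were chosen with earlier results of these data known. Upstream sequences and positions came from RefSeq R64, the build of sacCer3. The code was tested on simulated data, with 1 comparison per replicated experiment and few features changed. A change of 1 on the log2 scale was found for 18% of changed features in the cdc28-13 design. It was found for 4% in growth, 12% with rapamycin and 74% in the Bcy1 design. For a change of 2 the shares were 51%, 17%, 42% and 93%. A lack of calls in growth or with rapamycin therefore does not show a lack of change. Other scalings, filters, pseudocounts, replicate blocks and leaving out each library were tried.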

Additional observations from a re-analysis of the deposited data

Results flagged for a closer look

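Members whose effect differed between times or backgrounds, each by a direct test of the difference at an adjusted p under 0.05, are given here as values. The cdc28-13 effect differed from that at 2 h for 17 members at 8 h and 20 at 9 h. At 8 h it was larger by 3.41 for NDI1, 1.75 for NDE1, 4.54 for NDE2 and 6.60 for CYC7, and at 9 h by 3.13, 1.5, 4.08 and 5.38, on the log2 scale. NDE2 was listed at 0 in 1 WT library at 8 h and in 1 at 9 h, so its values depend on the added 1 of the log scale.

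Between the labelled diploid and the haploid 1 member differed at 10 h of growth and 1 at 1 h of rapamycin. The AID-BCY1 effect at 6 h differed from that in WT for 1 member in cdc28-13 (NDE2, -1.79) and 4 in cdc15-2 (among them NDE2, -2.08).

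The AID-BCY1 effect at 6 h differed from that at 2 h for 4 members in WT, 31 in cdc28-13, 21 in cdc20-1 and 33 in cdc15-2. In WT COX5B differed by -1.54. In cdc28-13 NDE2 differed by -2.11 and COX5A by -0.94. In cdc20-1 the values were -1.37 for NDI1, -1.97 for NDE2, -1.82 for CYC7, -0.89 for COX5A and -1.51 for COX5B. In cdc15-2 they were -1.34 for NDI1, -2.60 for NDE2, -1.52 for CYC7, -1.15 for COX5A and -1.55 for COX5B. Parent and AID-BCY1 strains differed in mating type in the cdc20-1 and cdc15-2 backgrounds, and its part in these values was not tested.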

How the results depend on the processing

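Counts of members called are given here over both directions, without the share of all features called under each setting. With the ribosomal DNA ORFs in the total, 18 members were called in cdc28-13 at 8 h, 16 in the haploid and 12 in the labelled diploid at 1 h of rapamycin, and the single-library medians at 9 h were 1.66 for cdc20-1 and 1.26 for alpha factor. Without a factor, 17 and 14 were called at 1 h and 27 and 25 at 5 h of rapamycin in the haploid and labelled diploid, and the medians were 1.74 for cdc20-1, 1.68 for cdc15-2 and 1.27 for alpha factor. On the deposited values, 19 were called in cdc28-13 at 8 h, 15 and 12 at 1 h of rapamycin and 21 at 5 h in the haploid, and the cdc20-1 median was 1.58. At 8 h of cdc28-13 the first and last of these scales gave -0.19 and -0.27 for ATP3, -0.13 and -0.23 for ATP4 and -0.15 and -0.25 for ATP7, and the deposited values gave -0.071 for ATP16 and, at 9 h, -0.040 for ATP3 and -0.031 for ATP16. With only the compared groups in the fit, which leaves fewer samples, the counts were 10 at 10 h of haploid growth, 3 at 1 h of haploid rapamycin, and 19 and 13 for cdc20-1 and cdc15-2 against WT at 6 h. Leaving out 1 library gave 0 to 0, 24 to 29 and 26 to 28 for cdc28-13 at 2, 8 and 9 h. It gave 13 to 17 and 18 to 20 for haploid and 26 to 28 and 22 to 27 for labelled diploid growth at 10 and 24 h, and 5 to 9 and 10 to 12 for haploid and 4 to 9 and 11 to 13 for labelled diploid rapamycin at 1 and 5 h. For AID-BCY1 at 6 h it gave 18 to 32, 35 to 37, 25 to 32 and 34 to 37 in WT, cdc28-13, cdc20-1 and cdc15-2, and for the 3 arrests against WT 25 to 30, 19 to 33 and 20 to 29. Another pseudocount, other filters and the exclusion of members listed at 0, an alternative added after seeing the data, kept every count within 1.5 times. Replicate numbers did not pair samples outside the Bcy1 experiment (correlations of deviations from -0.0558 to 0.045), and a replicate block gave 0, 29 and 28 in cdc28-13, 20, 25, 29 and 28 in growth and 9, 13, 7 and 13 with rapamycin. Without the library series term, 33, 37, 30 and 38 members were called with AID-BCY1 and 29, 32 and 27 in the arrests. Over single members and other settings, 3307 values kept direction and call, 180 lost the call and 9 changed direction, and with a library left out 1579 kept and 287 lost it. The cause of these changes was not tested. Depth is unknown, and genes under 300 coding bases limit the set.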
